A study of Mus musculus with 6 samples.

Results

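The comparison described here is that of CD69+ against CD69- T cells from naive mice, 2 of the 6 samples of the series, chosen by the column names of the non-normalized intensity table. Naive mice were healthy male C57BL/6 mice without a graft. T cells of their spleen and lymph nodes spent 20 to 21 h in culture with T cell-depleted splenocytes of BDF1 mice, an F1 hybrid of C57BL/6 and DBA/2, before a sort on CD3 and CD69. The CD69+ group holds the cells that displayed CD69 after this culture. The CD69- group holds cells of the same culture that did not, so both groups had met donor cells. The same fractions were made from tolerant male C57BL/6 mice on day 100 after a BDF1 tail skin graft, given a donor-specific transfusion and the anti-CD40L antibody MR-1, and from untreated male C57BL/6 mice rejecting such a graft on day 7. Each of the 6 samples was hybridized to 1 Illumina MouseWG-6 bead array, so the naive pair has no replicate and its differences have no test. How many mice gave the RNA, and which arrays shared a chip, is not given in the sources used here.

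CD69 is a membrane protein that T cells display soon after their receptor is engaged, and it holds T cells in lymphoid tissue by pulling the egress receptor S1PR1 off the surface. Part of the T cells of a mouse that never met donor tissue can recognise foreign MHC, and in this culture the DBA/2 side of the BDF1 genome supplies it to C57BL/6 cells. Resting T cells are held quiet by factors such as KLF2 and by IL-7 signals. Receptor triggering replaces that state with calcium, MAP kinase and NF-kappaB signals, cytokine secretion and a build-up of ribosomes and metabolic enzymes that precedes division.

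Levels are log2 intensities after background correction and quantile normalization of all 6 arrays, and a difference is the CD69+ level minus the CD69- level on that scale. A detection p under 0.01 marks a probe as detected, and 12821 probes were detected on the naive CD69+ array and 13469 on the naive CD69- array, within the range of 12669 to 13469 over all 6. Where the dimmer side was not detected, it was raised to the detection limit of its array and the fold is written as "at least". A feature, 1 named gene or 1 unnamed probe, was counted as higher or lower at 2-fold or more if the brighter library also had a non-normalized signal of 500 or above. The other pairs hold arrays that the naive values do not use. There, a CD69 effect over the tolerant and rejecting pairs was tested with limma and Benjamini-Hochberg adjustment on 1 residual degree of freedom, and "the test in the other pairs" below means this.

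The Cd69 transcript followed the sort. It stood at 13.76 in naive CD69+ cells, against 12.53 in naive CD69- cells, a 2.36-fold difference. Cd69 was 4.29-fold higher in CD69+ cells of the tolerant pair and 2.37-fold higher in those of the rejecting pair. The CD3 chain gene Cd3e was at 14.24 in CD69+ and 14.86 in CD69- cells, the coreceptor gene Cd4 at 8.75 and 9.32, and Cd8b1, which encodes the CD8 beta chain, at 14.96 and 15.90. The Cd8a probe was detected in neither library. Of the 10 T cell markers on the array, 8 were detected in CD69+ and 9 in CD69- cells. None of 9 macrophage and monocyte, 8 neutrophil, 4 platelet or 5 mast cell and basophil markers was detected in either library. Of 10 B cell markers, Cd79b and Blk were detected in both libraries and Ms4a1, Pax5, Cd22, Ebf1, Cr2, Fcer2a, Bank1 and Blnk in neither. The summed signal of the 2 was 1123.5 in CD69+ cells and 1257.1 in CD69- cells, with Blk 3.30-fold higher and Cd79b 1.97-fold lower in naive CD69+ cells. Of 7 plasma cell markers, Xbp1, Mzb1 and Irf4 were detected in both libraries and Jchain, Sdc1, Prdm1 and Tnfrsf17 in neither. The summed signal of these 3, of which activated T cells also express Irf4 and Xbp1, was 24885 in CD69+ and 6636.9 in CD69- cells. Mzb1 had a difference of 0.31 in the naive pair, against 4.67 in the tolerant and 1.18 in the rejecting pair. The dendritic cell list had 1 of 7 markers detected in CD69+ cells, Zbtb46, and 0 in CD69- cells. The NK cell list had 2 of 8 in CD69+ and 1 of 8 in CD69- cells. Of 5 erythroid markers, the 3 hemoglobin genes were detected in both libraries and Alas2 and Slc4a1 in neither, with a summed signal of 6267.5 in CD69+ and 37137 in CD69- cells. Their part in the differences below was not tested.

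The largest differences lay in a small set of secreted proteins, transcription factors and enzymes, and the promoters of those furthest apart are shown first, as the sequences from which these transcripts start. Each runs from 250 bases before to 50 bases after the first listed start of the RefSeq annotation of GRCm38.p6, on the gene's own strand. Capitals mark matches, on either strand, to GGAAA (the core letters of NFAT sites), TGANTCA (AP-1), CACGTG (an E-box bound by MYC and other factors) and GAAA followed by any 2 bases and GAAA again (the interferon-stimulated response element). The 4 genes furthest higher in CD69+ cells come first, then the 2 furthest lower. Il2 lies at chr3:37125905-37126204 on the minus strand, Ccl3 at chr11:83649329-83649628 minus, Xcl1 at chr1:164935473-164935772 minus, Bcat1 at chr6:145076108-145076407 minus, with 2 starts in the table, Cxcr1 at chr1:74194582-74194881 minus, and Fos at chr12:85473640-85473939 plus.
Il2: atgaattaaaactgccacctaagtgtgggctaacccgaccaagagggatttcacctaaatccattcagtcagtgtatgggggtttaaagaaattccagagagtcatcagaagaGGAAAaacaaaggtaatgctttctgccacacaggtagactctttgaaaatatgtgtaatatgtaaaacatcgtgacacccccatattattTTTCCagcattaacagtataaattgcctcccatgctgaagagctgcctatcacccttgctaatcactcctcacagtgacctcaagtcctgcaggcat
Ccl3: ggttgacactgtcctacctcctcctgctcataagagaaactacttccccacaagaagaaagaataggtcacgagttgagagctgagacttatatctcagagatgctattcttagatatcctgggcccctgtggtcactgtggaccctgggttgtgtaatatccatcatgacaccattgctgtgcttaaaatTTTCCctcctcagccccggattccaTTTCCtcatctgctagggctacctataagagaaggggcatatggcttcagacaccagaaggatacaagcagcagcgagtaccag
Xcl1: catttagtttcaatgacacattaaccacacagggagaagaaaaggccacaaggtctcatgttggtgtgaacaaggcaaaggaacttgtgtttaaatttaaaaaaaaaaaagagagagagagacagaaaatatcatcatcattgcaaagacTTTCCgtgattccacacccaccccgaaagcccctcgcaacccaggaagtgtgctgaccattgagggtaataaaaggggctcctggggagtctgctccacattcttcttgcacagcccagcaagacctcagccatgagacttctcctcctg
Bcat1: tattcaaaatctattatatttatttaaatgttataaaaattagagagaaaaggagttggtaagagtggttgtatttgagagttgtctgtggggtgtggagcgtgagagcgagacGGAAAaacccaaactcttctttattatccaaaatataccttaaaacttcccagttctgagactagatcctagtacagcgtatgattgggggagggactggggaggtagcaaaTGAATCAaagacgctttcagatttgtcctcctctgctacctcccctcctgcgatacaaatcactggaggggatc
Cxcr1: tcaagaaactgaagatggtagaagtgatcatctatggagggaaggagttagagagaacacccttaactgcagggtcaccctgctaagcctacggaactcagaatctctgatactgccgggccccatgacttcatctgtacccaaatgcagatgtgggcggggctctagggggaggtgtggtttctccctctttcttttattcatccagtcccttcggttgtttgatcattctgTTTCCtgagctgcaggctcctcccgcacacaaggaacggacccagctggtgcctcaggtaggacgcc
Fos: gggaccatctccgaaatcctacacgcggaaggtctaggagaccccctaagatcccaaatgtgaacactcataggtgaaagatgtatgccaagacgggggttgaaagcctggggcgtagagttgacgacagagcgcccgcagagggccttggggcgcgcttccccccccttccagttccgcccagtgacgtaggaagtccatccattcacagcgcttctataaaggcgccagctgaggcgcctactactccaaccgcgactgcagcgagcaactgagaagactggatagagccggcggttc
Il2 held the NFAT core at -137 and -47 from the start, Ccl3 at -59 and -34, Xcl1 at -100, Bcat1 at -136 together with an AP-1 match at -24, and Cxcr1 at -17. The Fos window held none of the 4 motifs.

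The NFAT core is short, and it was found in 61.3% of all 27025 promoters of the table and in 59.6% of the 6850 promoters of genes measured here. It was in 64.8% of the 315 promoters of genes at least 4-fold higher in naive CD69+ cells and in 55.9% of the 179 promoters of genes at least 4-fold lower. AP-1 letters were in 7.3% of the promoters of the higher genes and 1.68% of those of the lower genes, against 4.69% of those of measured genes. The E-box was in 19.4% of the higher and 9.5% of the lower genes' promoters, against 10.8%. The interferon element was in 1.59% of the higher and 6.15% of the lower genes' promoters, against 3.02%. Shares of all promoters in the table were 7.93% for AP-1, 7.24% for the E-box and 3.49% for the interferon element. A pair of further promoters, chosen after their values were seen, shows these elements. Egr2 (chr10:67535249-67535548, plus, 1 of 5 listed starts), whose transcript was higher in CD69+ cells, holds an E-box at -27. Ifit3 (chr19:34583279-34583578, plus), whose transcript was lower, holds the interferon element at -156 and -122, NFAT core letters at -245, -150, -109 and 41, and an AP-1 match at -56. In Ifit3 the interferon element at -156 and the NFAT core at -150 overlap and form 1 run of capitals.
Egr2: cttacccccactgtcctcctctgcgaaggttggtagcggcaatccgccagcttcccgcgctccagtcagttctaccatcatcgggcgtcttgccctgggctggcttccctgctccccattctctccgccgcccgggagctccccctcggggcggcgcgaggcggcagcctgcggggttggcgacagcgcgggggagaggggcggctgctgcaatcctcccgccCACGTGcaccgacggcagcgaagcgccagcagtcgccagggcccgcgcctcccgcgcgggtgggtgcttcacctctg
Ifit3: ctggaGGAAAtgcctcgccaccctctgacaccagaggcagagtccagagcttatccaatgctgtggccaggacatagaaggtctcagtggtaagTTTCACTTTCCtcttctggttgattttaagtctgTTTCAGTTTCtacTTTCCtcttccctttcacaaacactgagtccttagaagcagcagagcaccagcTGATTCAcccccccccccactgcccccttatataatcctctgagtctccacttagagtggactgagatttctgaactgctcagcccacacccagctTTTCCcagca
Matches are letters in a window and do not show binding.

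Across the genome the naive pair held 1360 features at least 2-fold higher in CD69+ cells (12.7% of 10687) and 1410 at least 2-fold lower (13.2%). Of these, 1141 and 1112 were named genes. The shares of 12.7% and 13.2% are those to set beside the 2-fold counts of the gene lists below. At least 4-fold differences numbered 432 higher (4.04%) and 309 lower (2.89%), and at least 1.5-fold differences 2090 higher (19.6%) and 2237 lower (20.9%). The tolerant pair held 1025 features 2-fold higher (9.59%) and 858 lower (8.03%), with 387 (3.62%) and 90 (0.842%) at 4-fold and 1772 (16.6%) and 1829 (17.1%) at 1.5-fold. The rejecting pair held 1227 higher (11.5%) and 1124 lower (10.5%), with 382 (3.57%) and 157 (1.47%) at 4-fold and 1961 (18.3%) and 1969 (18.4%) at 1.5-fold. The naive pair had the most features lower of the 3 pairs, at 2-fold and at 4-fold, under each of the 5 scalings tried. Among these, the authors' own value table and quantile normalization without background correction gave the same counts, so they are not separate checks. With array medians centred in place of quantile normalization it had 1459 higher and 1356 lower, against 1394 and 489 in the tolerant pair and 1689 and 701 in the rejecting pair, so that the naive pair no longer had the most features higher. Centring moved the median difference of all features to -0.04 in the naive pair, 0.15 in the tolerant and 0.16 in the rejecting pair, from -0.03, -0.05 and -0.05.

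**Figure D1:**
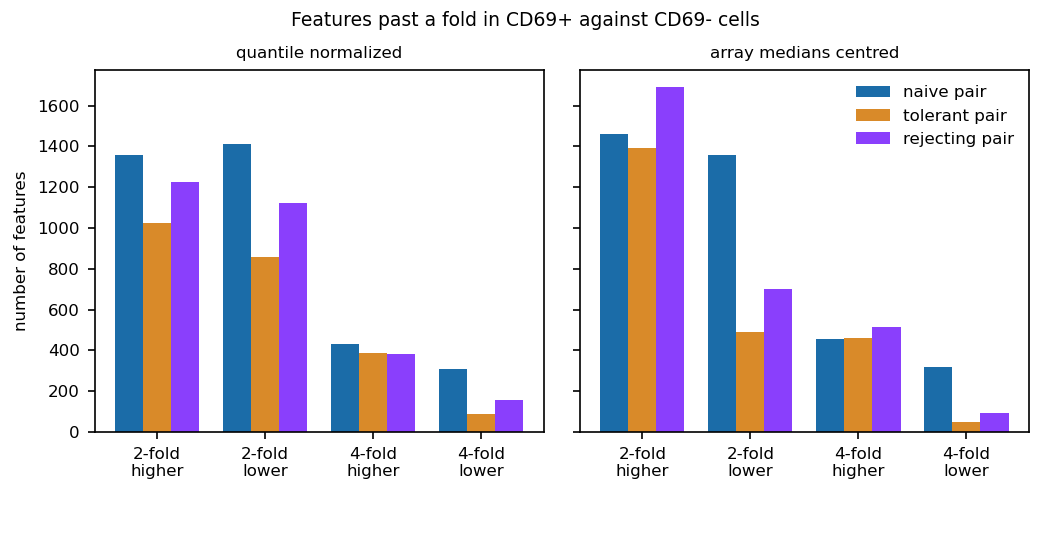
Number of features at least 2-fold or 4-fold higher or lower in CD69+ than in CD69- cells (vertical axis, count), for the naive, tolerant and rejecting pairs, with quantile normalization on the left and with array medians centred on the right. The naive pair has the tallest bars for lower features in both panels, while the rejecting pair has 1689 features 2-fold higher after centring, above the 1459 of the naive pair.

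The median size of the difference, regardless of sign, was 0.71 in the naive pair, 0.57 in the tolerant pair and 0.65 in the rejecting pair. Among features detected on both arrays of a pair the medians kept this order, at 0.66, 0.52 and 0.61. Over all 10687 features the naive differences correlated with the rejecting differences at Pearson's r of 0.950 and Spearman's rho of 0.939, and with the tolerant differences at 0.840 and 0.876. The tolerant and rejecting differences correlated at 0.858 and 0.882. These are correlations across genes, which are not independent replicates, and the pairs share no array.

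The 1360 higher features had a median difference of 1.59 in the naive pair, where they were chosen, of 1.24 in the tolerant pair and of 1.51 in the rejecting pair. In the tolerant pair 1352 had the same sign and 866 (63.7%) were at least 2-fold higher, where 9.59% of all features were. In the rejecting pair all 1360 had the same sign and 1170 (86.0%) were at least 2-fold higher, where 11.5% of all features were. The test in the other pairs called 1294 of them (95.1%) higher, against 2409 (22.5%) of all features. The 1410 lower features had medians of -1.53 in the naive, -1.06 in the tolerant and -1.30 in the rejecting pair. Of these, 795 (56.4%) were at least 2-fold lower in the tolerant pair, where 8.03% of all features were. In the rejecting pair 1113 (78.9%) were at least 2-fold lower, where 10.5% of all features were. The test in the other pairs called 1338 of them (94.9%) lower, against 2644 (24.7%) of all features. No feature of either set lay in the opposite direction in both other pairs.

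**Figure D2:**
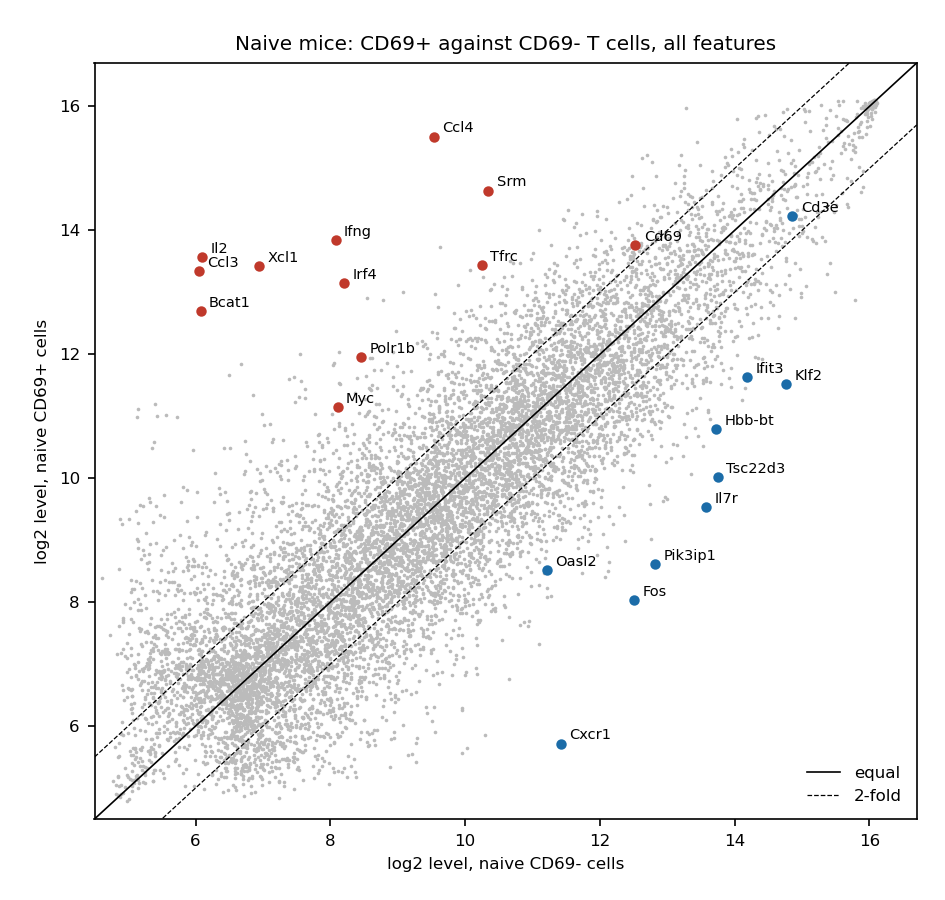
Level of each of the 10687 features in naive CD69- cells (horizontal axis, log2) and naive CD69+ cells (vertical axis, log2), with the line of equality and the 2-fold lines. Il2, Ccl3, Xcl1 and Bcat1 lie furthest above the lines and Cxcr1 furthest below, while Cd3e lies close to equality.

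Among the features furthest higher in naive CD69+ cells were genes of secreted cytokines. Il2, which encodes the growth factor of T cells, was at 13.56 in naive CD69+ cells and at 6.10, not detected, in naive CD69- cells, at least a 128-fold difference. Il2 was at 12.24 in tolerant and 13.43 in rejecting CD69+ cells and was not detected in either CD69- library, at least 47.5-fold and at least 97.9-fold. The naive value was the highest of the 3 CD69+ levels, close to the rejecting one. Ifng, the interferon of type 1 responses, was at 13.84 in naive CD69+ and 8.08 in naive CD69- cells, a 54.2-fold difference, against 15.6-fold in the tolerant and 66.7-fold in the rejecting pair. Il3, a growth factor for myeloid cells, was at 10.99 in CD69+ cells and not detected in CD69- cells, at least 21.6-fold, against at least 7.70-fold and at least 10.9-fold. Il4, the type 2 helper cytokine, was at least 16.3-fold higher in CD69+ cells, with at least 11.1-fold in the tolerant and at least 17.9-fold in the rejecting pair. Csf2, which encodes GM-CSF, was at least 7.05-fold higher, and Tnf was 16.2-fold higher.

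Of 23 measured genes of the secreted cytokine list, 13 were 2-fold higher and 0 lower, with a median difference of 2.76 in the naive, 3.07 in the tolerant and 2.91 in the rejecting pair, beside medians near 0 over all features. With levels below detection raised to the limit, which concerned 13 of the 23 genes in the naive pair, these medians were 2.70, 1.90 and 2.15, so their order depends on undetected CD69- levels. The test in the other pairs called 17 higher and 1 lower, against 22.5% and 24.7% of all features. The type 17 cytokine gene Il17f was at 9.26 in naive CD69+ cells and not detected in naive CD69- cells. Lymphotoxin alpha (Lta, 2.76), the TNF family ligands Tnfsf14 (3.76) and Tnfsf11 (3.97) and the killing ligand Fasl (2.64) had differences above 2, as did Ebi3, a subunit of IL-27 and IL-35, at 2.99. Lymphotoxin beta (Ltb) was at -0.81.

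Chemokine genes stood on both sides. Ccl3, which draws monocytes and T cells, was at 13.34 in naive CD69+ cells and 6.05, not detected, in naive CD69- cells, at least 110-fold, against at least 19.4-fold in the tolerant and at least 70.2-fold in the rejecting pair. Ccl4, an inflammatory chemokine closely related to Ccl3, was at 15.51 and 9.53, a 63.1-fold difference. Xcl1, which draws cross-presenting dendritic cells that carry XCR1, was at 13.42 in naive CD69+ and 6.94 in naive CD69- cells, an 89.0-fold difference, against 15.7-fold in the tolerant and 41.4-fold in the rejecting pair. Ccl5 ran the other way, at -2.53 in the naive pair. Over the 9 measured chemokines 6 were 2-fold higher (66.7%, against 12.7% of all features) and 1 lower (11.1%, against 13.2%). The medians were 3.47, 3.47 and 3.13 in the naive, tolerant and rejecting pairs as measured. With undetected levels raised to the limit they were 2.22, 1.76 and 1.42.

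**Figure D3:**
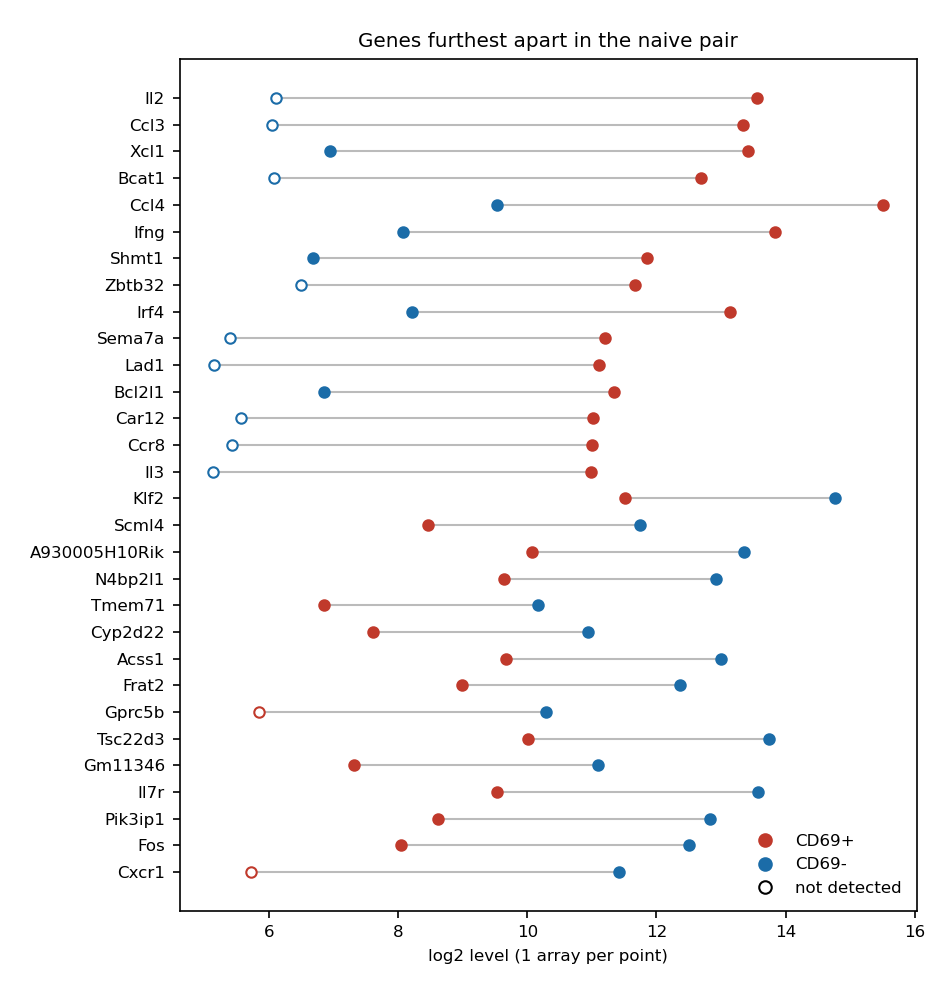
Levels (log2) of the 15 named genes furthest higher and the 15 furthest lower in naive CD69+ than in naive CD69- cells, red for CD69+ and blue for CD69-, 1 array per point, open where not detected. Il2 and Ccl3 span more than 7 log2 units as measured, and Cxcr1 is the lower gene with the widest span.

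Among receptors and surface proteins, Ccr8, the receptor for CCL1, was at least 21.7-fold higher in naive CD69+ cells, and Sema7a, a membrane-anchored semaphorin, with a difference of at least 4.64. The carbonic anhydrase gene Car12 was at least 22.1-fold higher and Lad1, named for the anchoring filament protein ladinin, at least 23.4-fold. Tfrc, the transferrin receptor that brings in iron, was at 13.44 and 10.25, a 9.16-fold difference, against 4.95-fold and 5.78-fold in the tolerant and rejecting pairs. The early T cell activation list had 24 measured genes, of which 21 were 2-fold higher and 0 lower (median 2.34, against 2.25 and 2.48, or 2.20, 2.13 and 2.13 with undetected levels raised to the limit), and all 24 were called higher by the test in the other pairs. The naive difference was the smallest of the 3 for 14 of the 24, where it was the smallest for 35.9% of all features. With array medians centred it was the smallest for 15 of the 24, close to the 58.3% of all features. Cd83, a surface marker of activated lymphocytes, was 12.8-fold higher, against 28.5-fold and 16.2-fold. The costimulatory receptors Tnfrsf9 (4-1BB) and Tnfrsf4 (OX40) were 5.12-fold and 4.98-fold higher, against 13.0-fold and 8.17-fold in the tolerant pair and 7.11-fold and 5.36-fold in the rejecting pair. Their levels in naive CD69+ cells, 12.96 and 15.10, were close to those in tolerant CD69+ cells, 13.03 and 14.96, and the naive CD69- levels, 10.61 and 12.78, lay above the tolerant CD69- levels, 9.33 and 11.93.

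The IL-2 receptor alpha gene Il2ra was at 1.56 in the naive pair and Foxp3, the lineage factor of regulatory T cells, at 1.13, against 2.35 in the tolerant and 1.78 in the rejecting pair. The regulatory T cell list, which shares Tnfrsf9, Tnfrsf4, Tnfrsf18 and Il2ra with the early activation list, had 12 of 19 genes 2-fold higher and 1 lower. Its median was 1.39 in the naive pair, 1.98 in the tolerant and 1.75 in the rejecting pair. The naive difference was the smallest for 13 of 19 genes, against 35.9% of all features. With array medians centred it was the smallest for 15 of 19, against 58.3% of all features. Of the inhibitory receptor and anergy genes 7 of 22 were 2-fold higher, among them Cd160 (3.78) and Lag3 (3.01), and 8 lower, among them the diacylglycerol kinase Dgka (-2.41) and Socs3 (-2.85). These 4 were picked from the 22, of which 31.8% were higher and 36.4% lower, against 12.7% and 13.2% of all features. The list median was -0.40, and a split of the list by function was not tested.

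Among transcription factors, Irf4, which scales effector differentiation with receptor signal, was at 13.15 in naive CD69+ and 8.21 in naive CD69- cells, a 30.7-fold difference, against 45.5-fold in the tolerant and 41.3-fold in the rejecting pair. Zbtb32, a zinc finger factor of activated lymphocytes, was at least 34.7-fold higher. Egr2, a factor induced by calcium signals, was at 11.03 in naive CD69+ and 8.02 in naive CD69- cells. Myc, the driver of growth metabolism, was 8.21-fold higher, against 4.46-fold and 4.97-fold in the tolerant and rejecting pairs. Tbx21, the type 1 lineage factor, was at 2.69 and Gata3, the type 2 lineage factor, at 0.39. Bcl6, the follicular helper factor, was 6.05-fold lower. Over the list of activation transcription factors 12 of 26 were 2-fold higher (46.2%, against 12.7% of all features) and 1 lower (3.85%, against 13.2%). The medians were 1.12, 1.41 and 1.31 in the naive, tolerant and rejecting pairs.

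Several immediate early genes were lower, while Egr2 above was not. Fos, the AP-1 subunit that peaks within an hour of stimulation in many cells, was at 8.04 in naive CD69+ cells and 12.50 in naive CD69- cells, a 22.1-fold lower level, against 12.0-fold and 9.01-fold lower in the tolerant and rejecting pairs. The mRNA decay factor Zfp36 was 6.28-fold lower and the phosphatase Dusp1 4.25-fold lower. Fosb was at least 4.10-fold lower, and Jun was at -1.49. Of 14 measured immediate early and stress genes 6 were 2-fold lower and 0 higher (13.2% and 12.7% of all features), with medians of -1.08, -0.70 and -0.61, or -0.54, -0.54 and -0.39 with undetected levels raised to the limit. Egr1 was at 0.77. The related factors Egr3 (2.70), Nr4a2 (2.30) and Nr4a3 (3.34), which belong to other lists, had positive differences. Of the 14 list members, the test in the other pairs called 7 lower and 2 higher, against 24.7% and 22.5% of all features. Feedback phosphatases split, with Dusp5 (2.78) and Dusp4 (2.69) higher and Dusp1 lower.

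Genes of ribosome assembly and of several synthetic pathways were higher in naive CD69+ cells, whereas those of glycolysis and fatty acid synthesis mostly did not differ by 2-fold. Of 34 measured ribosome biogenesis genes 28 were 2-fold higher and 0 lower, at a median difference of 2.13 in the naive pair, 1.59 in the tolerant and 2.04 in the rejecting pair. Polr1b, a subunit of RNA polymerase I, was 11.3-fold higher, and Noc3l and Nhp2, of nucleolar rRNA processing, 7.41-fold and 6.92-fold. The proteins of the finished cytosolic ribosome differed little, with 1 of 25 2-fold higher, 1 lower and a median of -0.01. Mitochondrial ribosome genes were 2-fold higher in 20 of 36, with medians of 1.16, 0.68 and 1.06. The naive difference was the largest of the 3 for 27 of these 36 with quantile normalization, where it was the largest for 32.4% of all features, and for 12 with array medians centred, where it was the largest for 12.4%.

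Amino acid uptake and synthesis genes were 2-fold higher in 13 of 19 and lower in 1, at medians of 2.16, 1.73 and 2.05. Bcat1, the cytosolic branched-chain aminotransferase, was at 12.69 in naive CD69+ cells and 6.08, not detected, in naive CD69- cells, at least 70.2-fold. In the other pairs Bcat1 was at least 45.5-fold and at least 48.5-fold higher. Shmt1, the serine hydroxymethyltransferase of the cytosol, had a difference of 5.17, the spermidine synthase Srm was 19.7-fold higher and the serine synthesis enzyme Psat1 17.1-fold. The amino acid carrier Slc38a2 was the member 2-fold lower, at -2.26. Nucleotide synthesis genes were 2-fold higher in 18 of 26 and lower in 1, led by Ctps, which makes CTP (9.30-fold), and the purine enzyme Pfas (8.70-fold). Transfer RNA charging genes were 2-fold higher in 9 of 17, chaperones in 13 of 23, with Hspd1 6.31-fold, and proteasome subunits in 17 of 24, with none lower in any of these 3 lists. In the tolerant pair 5 of 24 proteasome genes were 2-fold higher, and in the rejecting pair 13. With array medians centred, the rejecting medians of the ribosome biogenesis, amino acid, transfer RNA charging, nucleotide, chaperone and proteasome lists all lay above the naive ones, with naive medians of 2.24 for ribosome biogenesis and 1.21 for the proteasome against rejecting medians of 2.37 and 1.32. The tolerant medians of these 6 lists lay below the naive ones under both scalings.

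Sterol synthesis genes were 2-fold higher in 8 of 14, at medians of 1.32 in the naive, 1.08 in the tolerant and 0.85 in the rejecting pair, with Cyp51 7.13-fold and Hsd17b7 6.18-fold higher. Of 17 measured glycolysis genes, 0 were 2-fold higher and 4 (23.5%) were lower, at a median of -0.57. Pdk1, which holds pyruvate back from mitochondria, was 4.89-fold lower and Aldoc 3.61-fold lower. Ldha, which makes lactate, was at 0.53, and Gapdh at 0.30. Of 11 fatty acid synthesis genes 1 was 2-fold higher (9.09%) and 2 were lower (18.2%), at a median of 0.16. Oxidative phosphorylation genes were 2-fold higher in 8 of 31 (25.8%) and lower in 2 (6.45%). Over all features, 12.7% were 2-fold higher and 13.2% lower. The oxidative phosphorylation median was 0.54, with cytochrome c (Cycs) 2.96-fold higher.

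DNA replication genes were 2-fold higher in 20 of 34 and lower in none, at medians of 1.52, 1.23 and 1.62 in the naive, tolerant and rejecting pairs. Mcm10, which helps start forks, was at least 15.2-fold higher in naive CD69+ cells, and Uhrf1, a partner of the maintenance DNA methyltransferase, had a difference of 4.17. Gins1 and Gins2, of the replicative helicase, were 12.5-fold and 11.2-fold higher. Mitosis genes differed less, with 6 of 18 2-fold higher (33.3%, against 12.7% of all features) and 2 lower (11.1%, against 13.2%). Their median was 0.90, against 0.74 and 1.38. The mitotic kinase gene Cdk1 was at 8.72 in CD69+ cells and not detected in CD69- cells, at least 4.49-fold, and Kif23 was 4.38-fold lower. Among regulators of G1, the inhibitor Cdkn1b (p27) was 9.14-fold lower and Cdkn2d 7.20-fold lower, while the inhibitor Cdkn1a (p21) was at least 6.50-fold higher and E2f1 stood at a difference of 3.46. Bcl2l1, which encodes the survival protein BCL-XL, was 22.6-fold higher, while the death-promoting Bbc3 was 6.91-fold lower and Mcl1 was at -1.73.

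**Figure D4:**
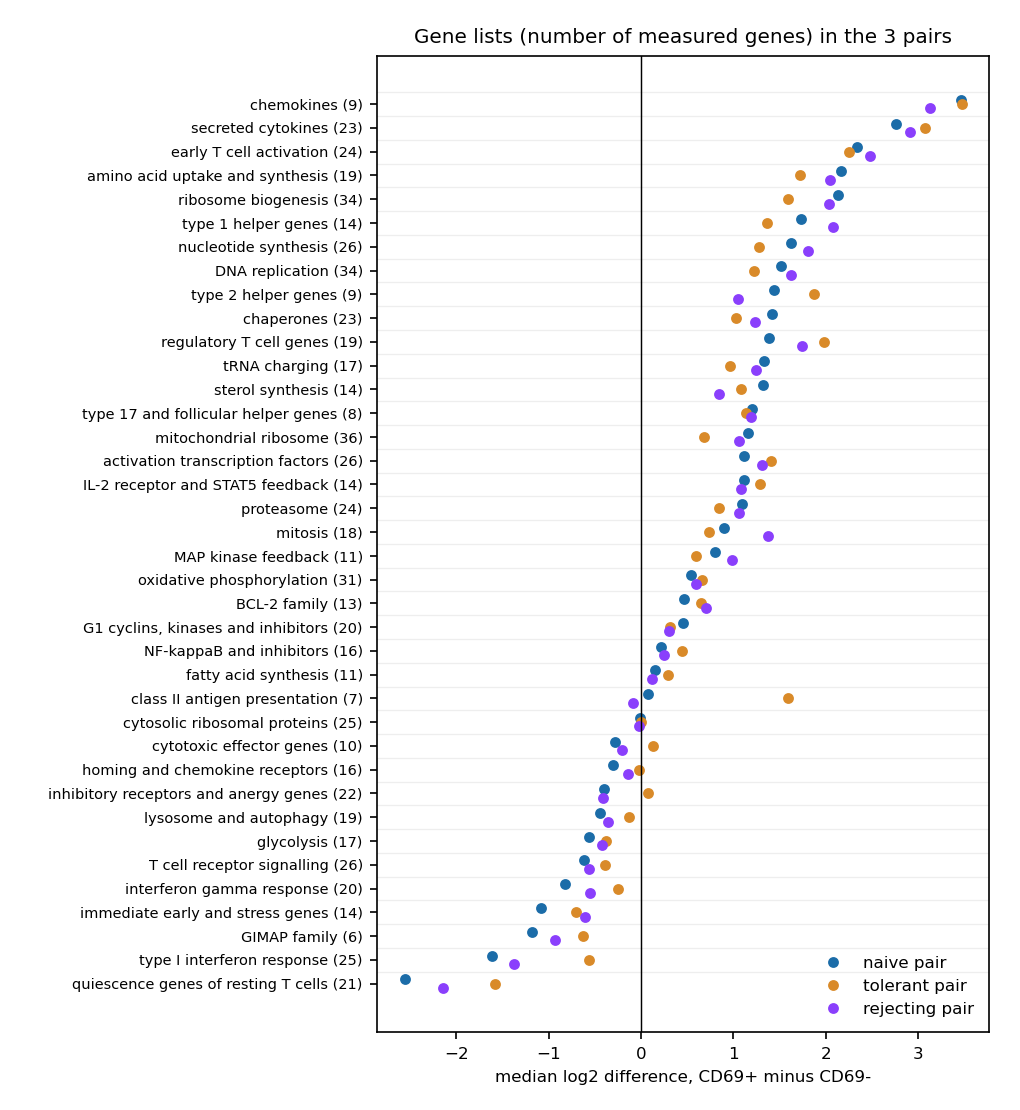
Median difference (log2, CD69+ minus CD69-) of the genes of each list, with the number measured in brackets, in the naive, tolerant and rejecting pairs. Chemokines, cytokines and activation genes stand at the top and quiescence genes at -2.55, -1.58 and -2.15 at the bottom. Levels are taken as measured, and cell type marker lists are not drawn.

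Of the 15 genes furthest lower in naive CD69+ cells, 4 were on the list of quiescence genes of resting T cells, Il7r, Pik3ip1, Tsc22d3 and Klf2. The 2 furthest lower of all were Cxcr1 and Fos. Cxcr1, a chemokine receptor gene best known from neutrophils, was at 5.72, not detected, in naive CD69+ cells and at 11.42 in naive CD69- cells, at least 25.3-fold lower, while no neutrophil marker was detected in either library. Pik3ip1, an inhibitor of PI3-kinase, was at 8.61 and 12.82, 18.5-fold lower, against 6.11-fold in the tolerant and 10.1-fold in the rejecting pair. Tsc22d3, the glucocorticoid-induced leucine zipper gene, was at 10.01 and 13.75, 13.3-fold lower, against 4.47-fold and 6.89-fold. Klf2, the quiescence factor that drives S1pr1, was at 11.51 and 14.77, 9.54-fold lower, against 3.54-fold and 6.53-fold. Of 21 measured quiescence genes 13 were 2-fold lower and 0 higher, with medians of -2.55 in the naive, -1.58 in the tolerant and -2.15 in the rejecting pair. The naive difference was the smallest of the 3, that is the deepest, for 16 of 21. For comparison, over all features the naive difference was the smallest for 35.9%. With array medians centred these shares were 19 of 21 genes and 58.3% of all features. The test in the other pairs called 17 of the 21 lower and none higher, against 24.7% and 22.5% of all features.

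Among 16 measured homing and chemokine receptor genes 2 were 2-fold higher (12.5%) and 4 lower (25%), against 12.7% and 13.2% of all features. The list median was -0.30 in the naive, -0.02 in the tolerant and -0.14 in the rejecting pair. S1pr4 (4.66-fold lower) and Itgb7 and Cxcr4 (-1.67 and -1.65) were lower, as was Klf2, which the list also holds, whereas Ccr6, a receptor of type 17 cells, was 6.12-fold higher, beside Ccr8. Cxcr5 was at 0.73 and Itgal at 0.71. The lymph node homing receptor Ccr7 was at -0.41. Of the 6 measured GIMAP genes, GTPases that sustain resting lymphocytes, 5 were 2-fold lower, with Gimap9 3.21-fold and Gimap1 3.05-fold, at medians of -1.18, -0.63 and -0.93. With array medians centred 3 of the 6 were 2-fold lower. Less familiar genes in the same range were Gm11346 (13.7-fold lower), Frat2 (10.4-fold), the mitochondrial acetyl-CoA synthetase Acss1 (10.1-fold), Cyp2d22 (10.1-fold), N4bp2l1 (9.79-fold), A930005H10Rik (9.70-fold) and the polycomb relative Scml4 (9.68-fold). Gprc5b, an orphan receptor gene, was at least 11.6-fold lower. These 8 genes were lower in both other pairs and passed the test there.

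Interferon-stimulated genes, which answer type I interferons, were mostly lower in naive CD69+ cells. Of 25 measured type I interferon response genes 15 were 2-fold lower (60%, against 13.2% of all features) and 0 higher. The medians were -1.61 in the naive, -0.56 in the tolerant and -1.38 in the rejecting pair. Ifit3 was at 11.63 in naive CD69+ and 14.18 in naive CD69- cells, 5.87-fold lower, and Oasl2 at 8.52 and 11.22, 6.49-fold lower. In the tolerant pair both genes were at lower levels in both fractions, Ifit3 at 10.24 and 11.95 and Oasl2 at 6.68 and 8.39. The antiviral gene Isg15 was at -0.32 and Bst2 at 0.00. Among 20 interferon gamma response genes 7 were 2-fold lower (35%) and 1 (5%), the chemokine gene Cxcl9, was higher, at least 4.22-fold. Over all features, 13.2% were 2-fold lower and 12.7% higher. The test in the other pairs called 13 of the 25 type I genes and 5 of the 20 interferon gamma genes lower, against 24.7% of all features. The interferon gamma genes were thus close to the share of all features in that test.

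Class II antigen presentation genes, which mouse T cells themselves largely lack, split. Cd74, the invariant chain, was at 10.97 in naive CD69+ and 9.15 in naive CD69- cells, 3.54-fold higher, against 10.2-fold in the tolerant and 3.79-fold in the rejecting pair. H2-Ab1 was at 0.27, and H2-Ob and H2-DMa were 8.81-fold and 2.99-fold lower. The median over the 7 measured genes was 0.08 in the naive, 1.59 in the tolerant and -0.09 in the rejecting pair, with the tolerant one at 0.80 when undetected levels were raised to the limit. Hemoglobin transcripts were lower in naive CD69+ cells, with differences of -2.92 for Hbb-bt, -2.78 for Hba-a1 and -2.68 for Hbb-bs. The rejecting pair had -2.54, -2.52 and -2.43 for these genes and the tolerant pair -1.18, -1.21 and -0.94. As in any bulk sample, fewer cells of a type and less RNA per cell cannot be told apart.

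The question of what was larger or smaller in the naive pair than in the others can be tested only as the naive difference against the mean of the other 2, with the disagreement between those as the error. In limma on all 6 arrays, with status as a block and 1 residual degree of freedom, 0 of 10687 features passed an adjusted p of 0.05, and the smallest adjusted p was 0.9875. At an unadjusted p under 0.05 there were 322 (3.01%), 113 (1.06%) with a higher and 209 (1.96%) with a lower naive difference. The comparisons between pairs that follow are therefore values of single arrays.

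Only 9 features (0.0842%) had a naive difference at least 2-fold above those of both other pairs, and 10 (0.0936%) one at least 2-fold below both. Levels below detection were raised to the limit for this count. The same count gave 173 (1.62%) above and 62 (0.58%) below for the tolerant pair, and 2 (0.0187%) and 15 (0.14%) for the rejecting pair. Taken singly, 139 features (1.3%) lay 2-fold above the tolerant difference and 330 (3.09%) below it, while 23 (0.215%) lay above the rejecting difference and 19 (0.178%) below it. By these counts the naive pair was closer to the rejecting pair than to the tolerant pair.

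Of the 9 features above both others 7 were named genes, some of them chemokine or cytokine genes. The rest were unnamed probes, detected on all 6 arrays. Of these probes, 1 was at 1.81 in the naive, 0.08 in the tolerant and 0.005 in the rejecting pair, and another at 1.93, 0.08 and 0.43. Ccl9 was at 8.77 in naive CD69+ cells and was detected in none of the other 5 libraries, where it lay between 4.98 and 6.56. Il17f was at 9.26 in naive, 8.24 in tolerant and 7.75 in rejecting CD69+ cells and was detected in no CD69- library, with folds of at least 6.49, at least 2.96 and at least 1.92. Ccl1, the ligand of CCR8, was at 9.34 in naive, 8.35 in tolerant and 8.23 in rejecting CD69+ cells, again with no CD69- library above detection. For these 3 genes the naive CD69+ library was the highest of the 6. Xcl1 differed on both sides, since its naive CD69+ level of 13.42 was the highest, against 12.06 and 12.64 in tolerant and rejecting CD69+ cells, and its naive CD69- level of 6.94 the lowest, against 8.09 and 7.26. Pcsk4, a proprotein convertase gene best known from germ cells, was at 8.55 in naive CD69+ cells, close to the 8.30 and 8.55 of the other CD69+ libraries, and at 7.27 in naive CD69- cells, below 8.14 and 8.31. Utf1, a chromatin factor of undifferentiated embryonic cells, was at least 8.33-fold higher, against at least 3.67-fold and at least 4.13-fold. No CD69- library detected Utf1, Ccl1 or Il17f, so their gaps also depend on the detection limits of the arrays. As measured, Utf1 was at 4.295 in the naive, 3.515 in the tolerant and 3.768 in the rejecting pair. Ccl1 was at 4.468, 3.473 and 3.133, and Il17f at 4.348, 3.479 and 2.911. By these values, each of the genes lay short of 2-fold above both others. The interaction test used levels as measured, also those below detection. Its unadjusted p was 0.0077 for Ccl9, 0.028 for Il17f, 0.016 for Ccl1, 0.041 for Xcl1 and 0.014 for Pcsk4 in limma, none of which passed adjustment. Utf1 did not reach an unadjusted p under 0.05 in this test. Rgs11, outside the naming rule, also counted as above both, but it was not detected in naive CD69+ cells and its value there was set by the detection limit. Il3, Spag4, Tuba4a and the neuropeptide gene Npw followed just short of 2-fold above both others.

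**Figure D5:**
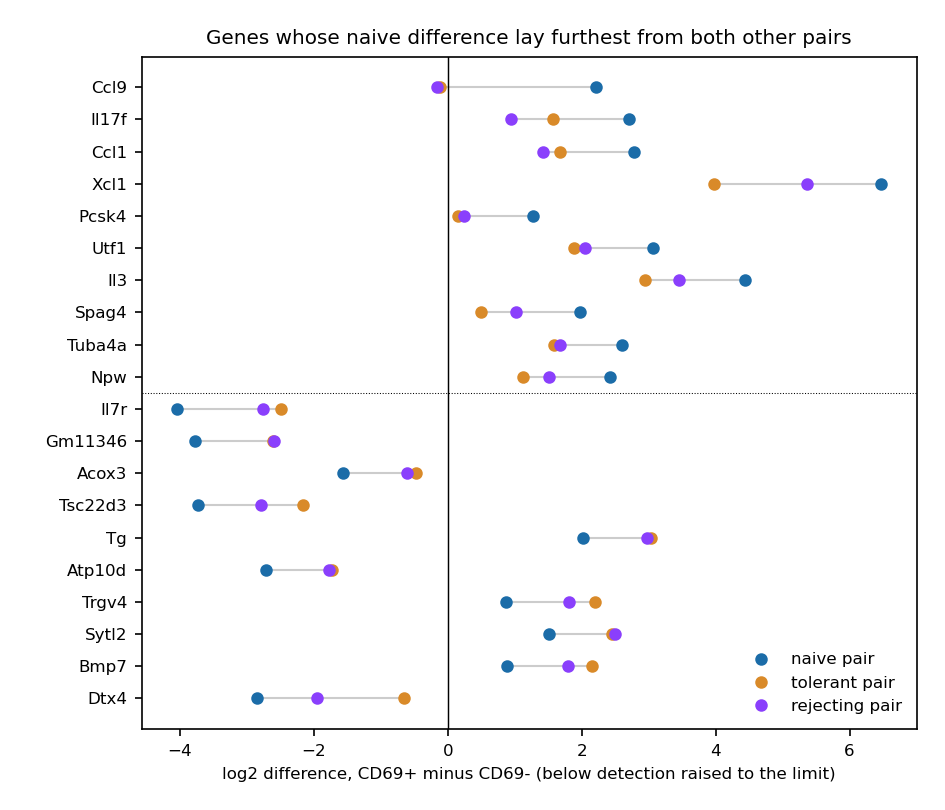
Difference (log2, CD69+ minus CD69-, each level below detection raised to the limit of its array) in the naive, tolerant and rejecting pairs for the 10 named genes furthest above and the 10 furthest below both other pairs in the naive pair. Ccl9 stands at 2.22 in the naive pair, while its points for the other pairs are differences between detection limits and no measurement, and Il7r lies furthest below the others.

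On the other side, Il7r, the receptor for the survival cytokine IL-7, was at 9.53 in naive CD69+ and 13.57 in naive CD69- cells, 16.5-fold lower, against 5.63-fold lower in the tolerant and 6.79-fold lower in the rejecting pair. Its CD69+ level was the lowest in naive cells, against 11.30 in tolerant and 10.13 in rejecting CD69+ cells, while the CD69- levels were 13.57, 13.79 and 12.89. The interaction gave an unadjusted p of 0.0068 in limma and did not pass adjustment. Gm11346 was 13.7-fold lower, against 6.10-fold and 6.06-fold. Acox3, a peroxisomal oxidase of branched fatty acids, was at -1.56, against -0.47 and -0.60, and did not pass the test in the other pairs (adjusted p = 0.0524 in limma). Tsc22d3, Atp10d and Dtx4 also lay deeper in the naive pair.

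For others of this group the naive difference was positive but smaller. Tg, the gene named for thyroglobulin, was at 2.02, against 3.03 and 2.97, and Sytl2, of vesicle docking, at 1.51, against 2.45 and 2.50. Trgv4, a gamma chain variable segment, was at 0.87, against 2.19 and 1.81, and Bmp7 at 0.89, against 2.15 and 1.79. The CD69- levels of these 4 were highest in naive cells for Tg (7.58, against 7.17 and 6.93), Trgv4 (9.07, against 8.62 and 8.03) and Bmp7 (7.76, against 7.04 and 7.12), but not for Sytl2 (level in naive CD69- cells between those of the other CD69- libraries, 8.61 and 6.88). Acsbg1, outside the naming rule, was the third named gene at least 2-fold below both others. The rest of the 10 were unnamed probes, and for some of these the tolerant difference was far the largest. An example was at 1.13 in the naive, 5.26 in the tolerant and 2.18 in the rejecting pair. Another probe was at -2.28, against -0.76 and -1.28. Some of the unnamed probes were detected on neither naive array, so their naive values were differences between detection limits.

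Among the 175 genes of the naming rule, some 2-fold apart in the naive pair did not pass the test in the other pairs. These were Gbp3, Pcsk4, Acsl4, Acox3, Ccl9, Gzmk, Dusp10, Rplp0 and H2-Oa. Beyond this rule, the test called 1294 of all 1360 higher and 1338 of all 1410 lower features. The guanylate-binding protein gene Gbp3 was at -1.54 in the naive pair, 0.21 in the tolerant and -1.15 in the rejecting pair. Its levels in naive, tolerant and rejecting CD69+ cells were 12.22, 12.55 and 12.61, while those in CD69- cells were 13.76, 12.34 and 13.76. Tolerant CD69- cells thus stood apart for this gene. Gzmk, a granzyme gene, was at -1.47, against -0.31 and -1.28, and the MAP kinase phosphatase Dusp10 at -1.32, against -0.35 and -1.22.

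Cytotoxic genes showed no common direction in the naive pair. Of 10 measured, 2 were 2-fold higher, Fasl (6.22-fold) and Klrg1 (at least 5.31-fold), and 3 were lower, among them Klrd1 (4.75-fold). These counts are 20% and 30% of the list, against 12.7% and 13.2% of all features. Perforin (Prf1) was at -0.75 and Nkg7 at 0.46. T cell receptor signalling genes were 2-fold lower in 5 of 26 (19.2%, against 13.2% of all features) and higher in none, at medians of -0.62, -0.38 and -0.56, with the adaptor Lcp2 2.93-fold and the common leukocyte antigen Ptprc 2.63-fold lower. Zap70 was at 0.43 and Cd28 at 0.07. Lysosome and autophagy genes were 2-fold lower in 4 of 19 (21.1%) and higher in none, with Map1lc3b 3.36-fold and Psap 3.22-fold lower.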

How the data were processed

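T cell RNA of 6 groups, 1 sample each and 0.55 µg per labelling, was read on Illumina MouseWG-6 arrays of 1 colour, per the labels' protocols. The sort protocol names the CD3+CD69+ gate for both fractions, so groups were taken from the sample titles. The deposited table holds, per the file headers, linear signal intensity for 45281 probes and a detection p-value from the authors, in multiples of 1 over 936. Array medians were 161.5 to 174.2. The submitters' processing notes name GenomeStudio 2009.2. A value table of the authors' own holds linear intensity with a median of 168.3 in each column and the ranks of the non-normalized data, and its normalization method is not given in the sources used here.

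Levels were computed in limma 3.58.1 (R 4.3.3) as log2 values after normexp background correction, in which the detection p-values stood in for the control probes, with 16 added, and quantile normalization. Features needed a detection p under 0.01 on 1 of the 6 arrays. Of all probes 34885 had 1 gene symbol, 18 several and 10378 none. The probe of highest mean stood for a gene, which left 10687 features, 8347 of them named. Other probes of genes 2-fold apart in the naive pair lay in the same direction in 1581 of 1671 cases (94.6%). The fold rule carries no test, and precision is limited by the small number of arrays. Both limma tests used 2-sided p-values, Benjamini-Hochberg adjustment and lmFit with eBayes. Both were also run on simulated data with equal noise for all features, which does not show how they behave on these arrays.

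Named genes were the 15 furthest higher and the 15 furthest lower in the naive pair, the 10 furthest above and the 10 furthest below both other pairs, the 4 of largest difference in each of 48 gene lists, and Cd69, Cd3e, Cd4 and Cd8a. Cd8a was not detected on any array and Cd8b1 stood in for it. Other names were chosen after their values were seen. Members, lists and rules were chosen with earlier results of these data known. Alternatives were the authors' value table, no background correction, array medians centred, an offset of 50, other detection, fold and signal minimums, every probe on its own, and a variance trend. Promoters are RefSeq sequences of GRCm38.p6.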

Additional observations from a re-analysis of the deposited data

Results flagged for a closer look

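Among the 175 genes of the naming rule, a pair that was 2-fold apart in the naive pair differed in direction in the tolerant pair, and this was not tested. Of all 1360 higher features 1352 had the same sign in the tolerant pair, and of all 1410 lower features 1401 did. The guanylate-binding protein gene Gbp3 had a log2 difference of -1.54 in the naive pair, against 0.21 in the tolerant pair. The class II accessory gene H2-Oa had a log2 difference of -1.31 in the naive pair, against 0.20 in the tolerant pair. With 1 array a side, such a flag rests on 4 arrays.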

How the results depend on the processing

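The 2-fold counts of the naive pair, 1360 higher and 1410 lower, became 2090 and 2237 at 1.5-fold and 432 and 309 at 4-fold, by construction. The 9 features above both other pairs became 2 with the authors' value table, 2 with no background correction, 3 with array medians centred, 4 when detection on all 6 arrays was required, 62 at 1.5-fold and 15 with no signal minimum. They became 139 against the tolerant pair alone and 23 against the rejecting pair alone, 2 alternatives chosen after seeing the data. The 10 features below both others became 1, 1, 65 and 6 under the first 4 of these settings, 152 at 1.5-fold, and, chosen after seeing the data, 31 with levels below detection taken as measured, 330 against the tolerant pair alone and 19 against the rejecting pair alone. Median centring moved the other pairs' medians upward, and for the remaining settings the cause was not tested. The cytokine list median of 2.76 became 2.09 with the authors' value table and with no background correction, the chemokine median of 3.47 became 1.81 under both and 2.68 with an offset of 50, and the type 2 helper median of 1.44 became 0.58 under both. With levels below detection raised to the limit, an alternative for the lists chosen after seeing the data, the chemokine median became 2.22 and the type 2 helper median 0.65. The interaction test called 0 features in each of the 9 settings, with 201 to 1384 at an unadjusted p under 0.05. Of 175 named genes, 54 moved by over 1.5-fold with the authors' value table, 54 with no background correction, 18 with an offset of 50 and 0 with centring, and none changed direction in these 4 settings. No paired analysis by replicate was possible because each group holds 1 array and so has no replicate numbers to pair. The 2 limma tests blocked on the status of the mice, so they compared the CD69+ and CD69- arrays within a status. Signal over background limits the low side of genes such as Il2 and Cxcr1 to a bound.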
